A study of Rattus norvegicus with 9 samples.

Results

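The miR-17 to miR-92 clusters and their paralogs were followed in the soleus, a slow postural muscle of the lower leg, of male Sprague-Dawley rats aged 6 months. The members were the probes named for rat miR-17, miR-18, miR-19a, miR-19b, miR-20a, miR-20b, miR-25, miR-92, miR-93 and miR-106b in any arm, which gave 12 of the 334 miRNA probes on the chip. They were chosen by name and not by a measured value. In 3 groups of 3 arrays, the hindlimbs had been unloaded by suspension for 2 days, unloaded in the same way for 7 days, or left loaded as controls. Suspended rats hung from a tail device, fitted under pentobarbital anaesthesia, that kept the hindlimbs off every surface while food and water stayed within reach. No sham device or anaesthesia is named for the controls, so unloading and the suspension procedure cannot be told apart. The labels do not say whether replicates were separate animals, and p-values measure only the spread between these samples.

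MicroRNAs (miRNAs) are short RNAs that pair with messenger RNAs and lower their translation or stability, and the bases next to their 5′ end, the seed, largely decide which messages they meet. The members are cut from hairpins that lie close together in shared primary transcripts, and so can be made together from 1 transcript, although each hairpin is also processed on its own. In human and mouse cells the clusters are known to be switched on by MYC and E2F factors and to favour proliferation, and Mcm7, whose intron holds the miR-106b cluster, encodes a subunit of the DNA replication helicase. Mature muscle fibres do not divide, so signal from whole muscle can come from fibres, satellite cells, vessels, connective tissue or blood.

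The mature sequences are shown because their seeds sort the members into the groups compared here. They are the chip's targets, 5′ to 3′, and capitals mark the seed (bases 2 to 8).
miR-17: cAAAGUGCuuacagugcagguagu
miR-20a: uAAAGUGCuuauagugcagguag
miR-20b: cAAAGUGCucauagugcaggu
miR-106b: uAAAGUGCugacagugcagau
miR-93: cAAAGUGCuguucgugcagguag
miR-18: uAAGGUGCaucuagugcagaua
miR-19a: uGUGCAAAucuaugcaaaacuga
miR-19b: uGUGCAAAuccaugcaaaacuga
miR-25: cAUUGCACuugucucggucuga
miR-92: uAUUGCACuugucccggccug
miR-20a*: aCUGCAUUacgagcacuuaca
miR-20b*: aCUGCAGUgugagcacuucug
All 12 matched a rat entry of RefSeq (GRCr8 table), 8 of them letter for letter and 4 with a difference in length only. The probes named miR-18 and miR-92 matched miR-18a-5p and miR-92a-3p. The 12 sequences hold 6 seeds. AAAGUGC is shared by miR-17, miR-20a, miR-20b, miR-93 and miR-106b, GUGCAAA by miR-19a and miR-19b, and AUUGCAC by miR-25 and miR-92. MiR-18 has AAGGUGC, and the starred arms of the miR-20a and miR-20b hairpins each have a seed of their own. Several targets are nearly the same beyond the seed too. MiR-19a and miR-19b differ by 1 base, and over the stretch the shorter target covers, with unmatched end bases left out, miR-17, miR-20a and miR-20b differ by 2 bases in each pairing and miR-25 and miR-92 by 3. Over their whole length, ends counted, these differ by 3 (miR-17 and miR-20a), 5 (miR-17 and miR-20b), 4 (miR-20a and miR-20b) and 4 (miR-25 and miR-92). Over the stretch the shorter target covers, miR-106b also differs by 3 bases from miR-17 and from miR-20a. MiR-93 differs there by 3 from miR-17 and from miR-20b. So alike, such probes, all 5 of the AAAGUGC seed among them, may share signal and are not independent readings.

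RefSeq places the hairpins in 3 clusters of the GRCr8 assembly. The miR-17 to miR-92 cluster spans 785 bases at chr15:98587848-98588632 on the plus strand and holds 6 hairpins. Its paralog spans 871 bases at chrX:137342777-137343647 on the minus strand, with 5 hairpins. The cluster of miR-106b, miR-93 and miR-25 spans 494 bases at chr12:22156641-22157134 on the minus strand, within the Mcm7 gene (chr12:22155921-22163320, same strand). The mature miR-17, miR-19b and miR-92 are each encoded at 2 loci, 1 on chromosome 15 and 1 on the X chromosome, so their signal cannot be assigned to either cluster. Only miR-18, miR-19a and miR-20a with its starred arm come from the chromosome 15 cluster alone, and miR-20b with its starred arm from the X-linked cluster alone. The map of the hairpins shows that every cluster joins hairpins of the miR-17 seed to hairpins of the miR-92 seed.

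**Figure D1:**
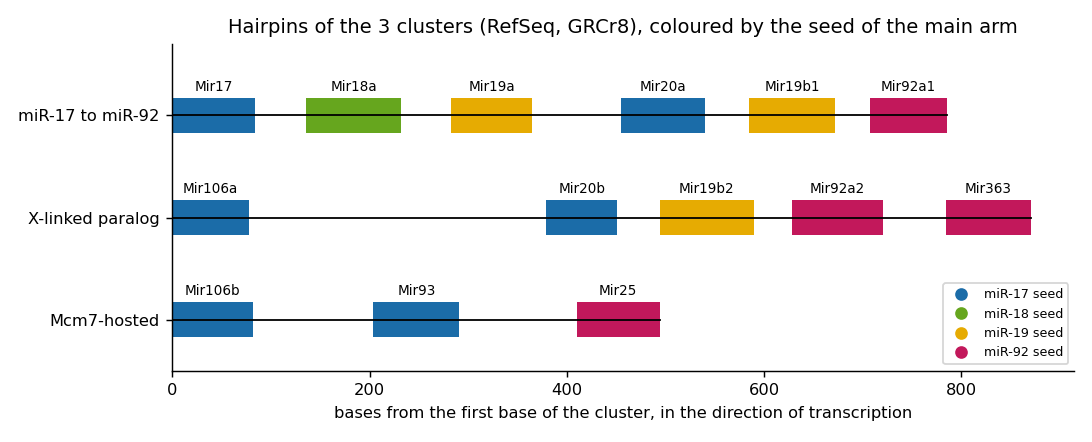
Hairpins of the 3 clusters drawn to scale, with the distance in bases from the first base of each cluster, in the direction of transcription, on the x axis. Colours give the seed of the main arm: AAAGUGC (miR-17 seed), AAGGUGC (miR-18 seed), GUGCAAA (miR-19 seed) or AUUGCAC (miR-92 seed), and the clusters span 785, 871 and 494 bases.

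Signal was read as scanner brightness, 9 repeat spots a probe, and all values below are log2 intensities after background correction and quantile normalisation unless said otherwise. Brightness depends on the probe, so the level of 1 member is not set against that of another. The limit of detection, the 95th percentile of the 614 empty spots of an array, lay at 33.7 to 73.3 brightness units on the 2-day arrays, 31.98 to 38.4 on the 7-day arrays and 31.6 to 53.6 on the control arrays. Before normalisation the median brightness of the tested members was 184 to 455, 364 to 496 and 366 to 436 units, in the same order of groups, and the 184 belonged to 2-day array 1. The tissue carried its defining markers: the 6 striated muscle miRNAs listed for it were all tested, 5 of them detected on all 9 arrays, with summed brightness of 152852 to 172315 on the 2-day, 161405 to 174299 on the 7-day and 157322 to 170154 on the control arrays.

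MiR-17, miR-19b, miR-20a, miR-20b, miR-25, miR-92, miR-93 and miR-106b were detected on all 9 arrays, 8 of the 12 members. MiR-18 was detected on 1 of 3 arrays after 2 days, 3 of 3 after 7 days and 2 of 3 in controls. It passed the filter, detection on every array of at least 1 group, only through the 7-day group. MiR-19a was detected on 0 of 3 arrays after 2 days, 2 of 3 after 7 days and 1 of 3 in controls, and was not tested. Its brightness reached 61.2 units on control array 1 and was 27.3 to 57.6 on the others. The starred arms miR-20a* and miR-20b* were detected on none of the 9 arrays, with normalised values of 5.83 to 6.02 and 5.86 to 6.05. Of the other miRNAs of these hairpins or seeds, miR-363-3p and miR-363-5p were detected on no array and miR-32 on 2 of 9. Tests therefore covered 9 members among 178 tested probes, with 5 members of the miR-17 seed, 2 of the miR-92 seed and 1 each of the miR-18 and miR-19 seeds.

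The first comparison asked how the members stood after 2 days of unloading. The 5 members of the miR-17 seed had lower fitted values on the 2-day than on the control arrays, with log2 fold changes from -0.39 to -0.23, and miR-25 and miR-92 had fold changes near 0. The 5 kept a negative sign in each of 25 alternative analyses, but without normalisation between arrays miR-20b stood at -0.039 and miR-93 at -0.0024. Some of the 25 changed only the detection filter, added a replicate block or fitted only the groups compared, and these cannot change a fold change. Because whole muscle was measured, fewer cells of a type and less RNA per cell cannot be told apart in any of these values. No member passed an adjusted p of 0.05 (limma, Benjamini-Hochberg over 178 probes), against 0.562% of all probes tested, and the smallest adjusted p of a member was 0.298. At an unadjusted p under 0.05 there was 1 member of 9, miR-17, against 6.74% of all probes. In all, 8 of 9 members had a lower fitted value, against 60.1% of all probes, and their median log2 fold change was -0.26, against -0.05 for all probes. The groups did not overlap for 2 of 9 members, miR-17 and miR-93, against 7.87% of all probes. In the values that the authors deposited, scaled in another way, both of these overlapped. Without normalisation between arrays the members' median was -0.04 and that of all probes 0.07.

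The second comparison asked the same after 7 days, against the same 3 control arrays. The 5 members of the miR-17 seed again had lower fitted values under quantile normalisation, from -0.42 to -0.18, but not with each array centred on the median of all 334 probes, where they stood from 0.03 to 0.32. MiR-19b stood at -0.49, and miR-25 and miR-92 stood just above 0, under quantile normalisation. No member passed an adjusted p of 0.05, as did 0% of all probes, and the smallest adjusted p of a member was 0.283. At an unadjusted p under 0.05 there was again 1 member of 9, miR-20a, against 14% of all probes, a share close to the background. Of the 9 members, 7 had lower fitted values, against 58.4% of all probes, with a median of -0.22, against -0.03. The groups did not overlap for 4 of 9 members, miR-17, miR-20a, miR-93 and miR-106b, against 23.6% of all probes. In the values that the authors deposited, miR-106b overlapped. That centring on all probes left 2 of 9 members lower, with a median of 0.11, and it also moved the median of all tested probes to 0.23, so that the members' median stayed below it. Without normalisation between arrays 4 of 9 were lower, with a median of 0.03, and the median of all probes was 0.14. MiR-25 and miR-92 stood well above 0 in both, at 0.66 and 0.52 with that centring and at 0.58 and 0.43 without normalisation. MiR-19b stood there at -0.07 and -0.15. Array weights, in which limma gives less weight to arrays that fit poorly, brought miR-20a past the threshold, at -0.50 (adjusted p = 0.0425), 1 of 9 members where that same fit called 10 of the 178 probes (5.62%).

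**Figure D2:**
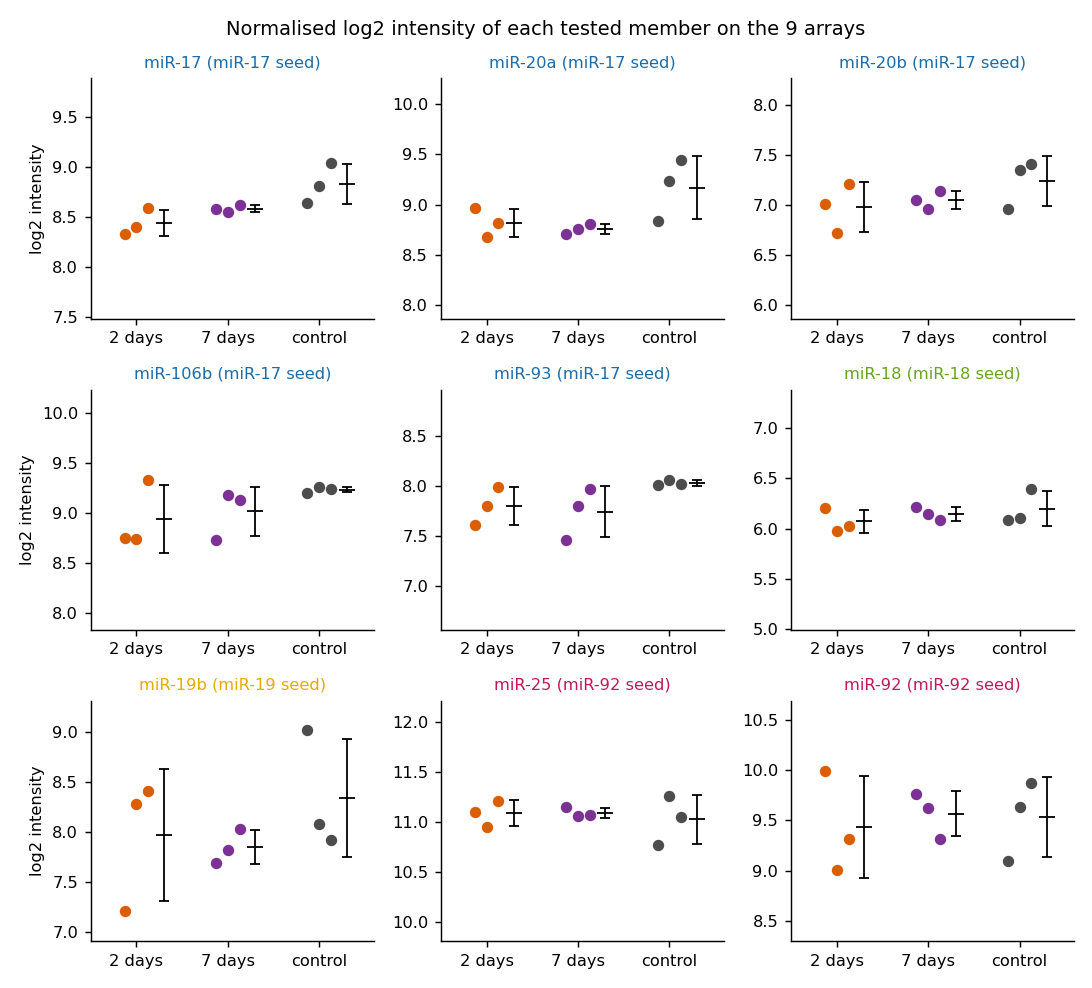
Normalised log2 intensity (y axis, the same span in each panel) of the 9 tested members on each array, after 2 days, after 7 days and in controls. Points are arrays 1 to 3 of a group from left to right, and bars give the mean ± SD (n = 3). On this scale all 2-day and 7-day points of miR-17 and miR-93 lie below all control points, those of miR-25 and miR-92 overlap the controls, and miR-19b has the widest spread.

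MiR-17, which gives the seed group its name and represses E2f1 and Cdkn1a messages in human and mouse cells, had log2 intensities of 8.33, 8.40 and 8.59 on 2-day arrays 1 to 3, 8.58, 8.55 and 8.62 on the 7-day arrays, and 8.64, 8.81 and 9.04 on the control arrays. Every suspended array lay below every control array, though at 7 days only just, with 8.62 on the highest 7-day array and 8.64 on the lowest control array. The group means were 8.44 ± 0.13, 8.58 ± 0.04 and 8.83 ± 0.20 (SD, n = 3 each). The log2 fold change was -0.39 ± 0.12 at 2 days (SE, 95% interval -0.66 to -0.11, unadjusted p = 0.0117, limma adjusted p = 0.298), a value 1.31-fold lower, and it had the seventh smallest p of the 178 probes. At 7 days it was -0.24 ± 0.12 (interval -0.52 to 0.03, adjusted p = 0.481), and -0.14 without control array 3. In the authors' value table, which is scaled in another way, miR-17 had 237, 323 and 379 units on the 2-day, 327, 297 and 335 on the 7-day and 374, 392 and 417 on the control arrays, so that there 2-day array 3 lay among the controls. Repeat spots gave a standard error of 0.04 within an array, well under the SD between arrays of a suspended or control group, except at 7 days, where both were 0.04.

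MiR-20a, its neighbour in the chromosome 15 cluster with the same seed, had 8.96, 8.67 and 8.82 on the 2-day arrays, 8.70, 8.76 and 8.80 on the 7-day arrays and 8.83, 9.23 and 9.45 on the control arrays. The 7-day arrays lay below all controls, while 2-day array 1 lay above control array 1. The log2 fold change was -0.35 ± 0.16 at 2 days (interval -0.71 to 0.01, limma adjusted p = 0.715) and -0.42 ± 0.16 at 7 days (interval -0.78 to -0.05, unadjusted p = 0.0293, adjusted p = 0.283), a value 1.33-fold lower. The control arrays spread more (SD 0.31) than the 2-day (SD 0.14) or 7-day arrays (SD 0.05). Without control array 1 the fold changes were -0.54 and -0.60, and without control array 3 they were -0.22 and -0.28. The authors' table gave 360, 410 and 443 units after 2 days, 352, 343 and 394 after 7 days and 427, 575 and 609 in controls.

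MiR-20b, the X-linked member with this seed, had 7.01, 6.72 and 7.21 after 2 days, 7.05, 6.96 and 7.14 after 7 days and 6.96, 7.35 and 7.41 in controls. Control array 1 lay within the suspended arrays, and the groups overlapped at both times. Its log2 fold changes were -0.26 ± 0.16 at 2 days (interval -0.63 to 0.12, limma adjusted p = 0.873) and -0.18 ± 0.16 at 7 days (interval -0.56 to 0.19, adjusted p = 0.826). Without control array 1 they were -0.41 and -0.34, the 2-day value was -0.13 without 2-day array 2, and the 7-day value was -0.10 without control array 3.

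The other members of this seed lie in Mcm7, and in human cells both repress Cdkn1a, an inhibitor of the cell cycle. MiR-106b had 8.75, 8.74 and 9.33 after 2 days, 8.74, 9.18 and 9.14 after 7 days and 9.21, 9.26 and 9.24 in controls. The control arrays stood close together, each 7-day array lay below them, and 2-day array 3 lay above them. MiR-106b had log2 fold changes of -0.29 ± 0.18 at 2 days (interval -0.72 to 0.13, limma adjusted p = 0.873) and -0.22 ± 0.18 at 7 days (interval -0.64 to 0.21, adjusted p = 0.826). Single arrays weighed on both: the 2-day value was -0.49 without 2-day array 3 and -0.19 without 2-day array 2, and the 7-day value was -0.075 without 7-day array 1. MiR-93 had 7.61, 7.80 and 7.99 after 2 days, 7.46, 7.80 and 7.97 after 7 days and 8.01, 8.06 and 8.02 in controls. All 6 suspended arrays lay below all control arrays, although the highest of each suspended group, 7.99 and 7.97, came close to the lowest control. MiR-93 stood at -0.23 ± 0.15 at 2 days (interval -0.57 to 0.11, adjusted p = 0.878) and -0.29 ± 0.15 at 7 days (interval -0.62 to 0.05, unadjusted p = 0.0881, adjusted p = 0.508). These were -0.13 without 2-day array 1 and -0.14 without 7-day array 1.

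MiR-18, the single member with the AAGGUGC seed, lay close to background, at 6.20, 5.98 and 6.03 after 2 days, 6.21, 6.14 and 6.08 after 7 days and 6.09, 6.10 and 6.40 in controls. The groups overlapped at both times, and control array 3 was the highest of the 9. The log2 fold changes were -0.13 ± 0.11 and -0.05 ± 0.11 (limma adjusted p = 0.921 and 0.9505). At so low a level a fold change on this scale, with its offset of 50 units, understates any difference in the RNA.

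MiR-19b had 7.21, 8.28 and 8.41 after 2 days, 7.69, 7.82 and 8.03 after 7 days and 9.02, 8.08 and 7.92 in controls. It varied most of the tested members within the 2-day and the control group, though not within the 7-day group: 2-day array 1 was the lowest of the 9 and control array 1 the highest, and the groups overlapped at both times. The means were 7.97 ± 0.66 after 2 days, 7.85 ± 0.17 after 7 days and 8.34 ± 0.59 in controls (SD, n = 3 each). Its log2 fold changes were -0.37 ± 0.38 at 2 days (interval -1.25 to 0.51, limma adjusted p = 0.974) and -0.49 ± 0.38 at 7 days (interval -1.37 to 0.39, adjusted p = 0.826). Both rested on single arrays. Without control array 1 they were -0.03 and -0.15, and without 2-day array 1 the 2-day value was 0.01. On control array 1 the near-identical miR-19a was also at its highest, 6.38, against 5.85 to 6.02 on the other arrays.

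MiR-25, the last hairpin of the Mcm7 cluster, had 11.10, 10.95 and 11.21 after 2 days, 11.14, 11.06 and 11.07 after 7 days and 10.76, 11.26 and 11.05 in controls. The suspended arrays all fell between the lowest and the highest control. The log2 fold changes were 0.06 ± 0.13 at 2 days (interval -0.24 to 0.37, limma adjusted p = 0.977) and 0.07 ± 0.13 at 7 days (interval -0.24 to 0.37, adjusted p = 0.946), and both were -0.06 without control array 1. MiR-92, which in mouse endothelial cells limits vessel growth, had 9.99, 9.00 and 9.31 after 2 days, 9.76, 9.63 and 9.32 after 7 days and 9.09, 9.63 and 9.87 in controls. The groups overlapped throughout, and the highest and the lowest of the 9 values were both 2-day arrays. Its log2 fold changes were -0.10 ± 0.29 (interval -0.77 to 0.57, adjusted p = 0.977) and 0.04 ± 0.29 (interval -0.63 to 0.71, adjusted p = 0.988). The sign of either fold change of miR-92 turned when single arrays were left out.

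**Figure D3:**
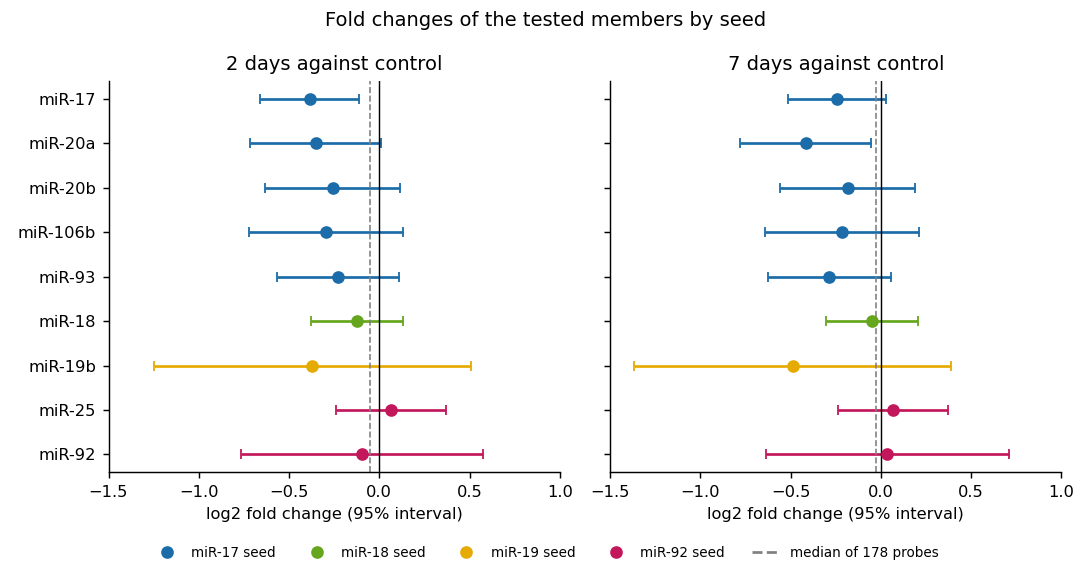
Log2 fold changes (x axis) of the 9 tested members after 2 days and after 7 days against control, coloured by seed, with bars for the 95% interval of the limma fit and a dashed line at the median of the 178 tested probes. The 5 members of the miR-17 seed lie left of the dashed line at both times under quantile normalisation (at 7 days they lie above 0, from 0.03 to 0.32, with centring on the median of all probes), and only miR-17 at 2 days and miR-20a at 7 days have intervals clear of 0, before adjustment.

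By seed, the median of the log2 fold changes was -0.29 at 2 days and -0.24 at 7 days for the 5 members with AAAGUGC, and -0.02 and 0.05 for the 2 with AUUGCAC. Both values share the same control arrays. Since the median of all tested probes itself ran over the scalings from -0.10 to 0.07 at 2 days and from -0.26 to 0.23 at 7 days, each seed's median was taken relative to that of all probes. So measured, the AAAGUGC median stood from -0.25 to -0.19 at 2 days and from -0.23 to -0.12 at 7 days over 7 scalings, the authors' own table among them. The AUUGCAC median stood from 0.01 to 0.07 and from 0.08 to 0.36. MiR-19b, alone for its seed, stood from -0.32 to -0.19 and from -0.51 to -0.30, and miR-18 from -0.08 to -0.05 and from -0.25 to -0.02 over 6 scalings. Of the 7 scalings, both median centrings, the percentile centring and the absence of scaling differ only by a constant on each array, so they give the same relative value and count once.

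**Figure D4:**
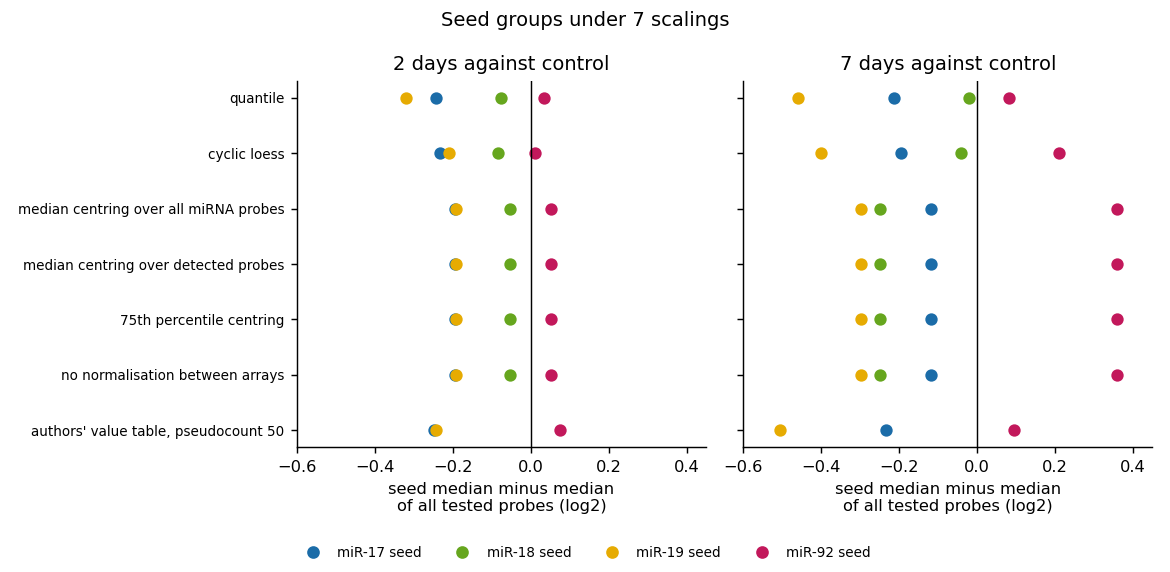
Median log2 fold change of each seed's tested members minus the median of all tested probes (x axis), after 2 days and after 7 days against control, for 7 ways of scaling the arrays. The miR-17 seed lies between -0.25 and -0.12 and the miR-92 seed between 0.01 and 0.36 in every row, and miR-18 has no point in the authors' table.

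The difference between both seeds was also taken within each array, where any constant of the array drops out. An array effect that varies with brightness does not drop out. In brightness miR-25 and miR-92 ranked 53 and 73 of the 178 probes, and the AAAGUGC members ranked 76 to 122. The size of the difference depends on the probes, and only its shift between groups is read. The mean of the 5 AAAGUGC members minus the mean of the 2 AUUGCAC members was -2.41, -1.91 and -1.87 on the 2-day arrays, -2.35, -2.09 and -1.86 on the 7-day arrays and -1.60, -1.90 and -1.83 on the control arrays. Suspended array 1 of either group was the lowest and control array 1 the highest, and the groups overlapped at both times. The means were -2.07 ± 0.30, -2.10 ± 0.24 and -1.78 ± 0.16 (SD, n = 3 each), shifts of -0.29 and -0.32 from control. The 2-day shift was -0.11 without 2-day array 1, the 7-day shift was -0.20 without 7-day array 1, and leaving out any other array gave -0.38 to -0.20 and -0.44 to -0.23. On values that were not normalised between arrays the shifts were -0.23 and -0.45, and there all 7-day arrays lay below all controls. No p is given for these scores over chosen members.

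Differences between hairpins of 1 cluster were taken in the same way, with no test. In the Mcm7 cluster, miR-106b minus miR-25 averaged -2.15 ± 0.24 after 2 days, -2.07 ± 0.29 after 7 days and -1.79 ± 0.22 in controls, with overlapping groups. MiR-93 minus miR-25 averaged -3.29 ± 0.18, -3.35 ± 0.30 and -2.99 ± 0.22 in the same order, also with overlap. In the chromosome 15 cluster, miR-20a minus miR-92 was -1.06, -0.87 and -0.52 on the 7-day arrays and -0.26, -0.40 and -0.43 on the control arrays, which did not overlap. The 2-day arrays, at -1.03, -0.33 and -0.50, overlapped the controls, and their shift of -0.26 was -0.049 without 2-day array 1. MiR-92 has a second locus on the X chromosome, so this difference is not one within a single transcript alone. MiR-17 minus miR-20a, of 1 seed, averaged -0.38 ± 0.22, -0.17 ± 0.04 and -0.34 ± 0.13, with overlap at both times. MiR-17 too has a second locus on the X chromosome, so this difference is not one within a single cluster alone.

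By cluster, the 5 tested members with a copy in the chromosome 15 cluster had median log2 fold changes of -0.35 at 2 days and -0.24 at 7 days, with 5 of 5 and 4 of 5 lower under quantile normalisation. The 4 with a copy in the X-linked cluster had -0.31 and -0.21, with 4 of 4 and 3 of 4 lower, and shared 3 members with the chromosome 15 count. The 3 of the Mcm7 cluster had -0.23 and -0.22, with 2 of 3 lower at both times. The members just above 0 at 7 days were the 2 with the AUUGCAC seed. These were miR-25 in the Mcm7 cluster and miR-92, which is the same probe in both other clusters. Without control array 1 miR-25 and miR-92 stood at -0.06 and -0.18 at 7 days, and with array weights at -0.0012 and -0.029. At 7 days the counts of lower members hold for quantile normalisation. They do not hold for centring on the median of all 334 probes, where only miR-18 and miR-19b stayed below 0.

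**Figure D5:**
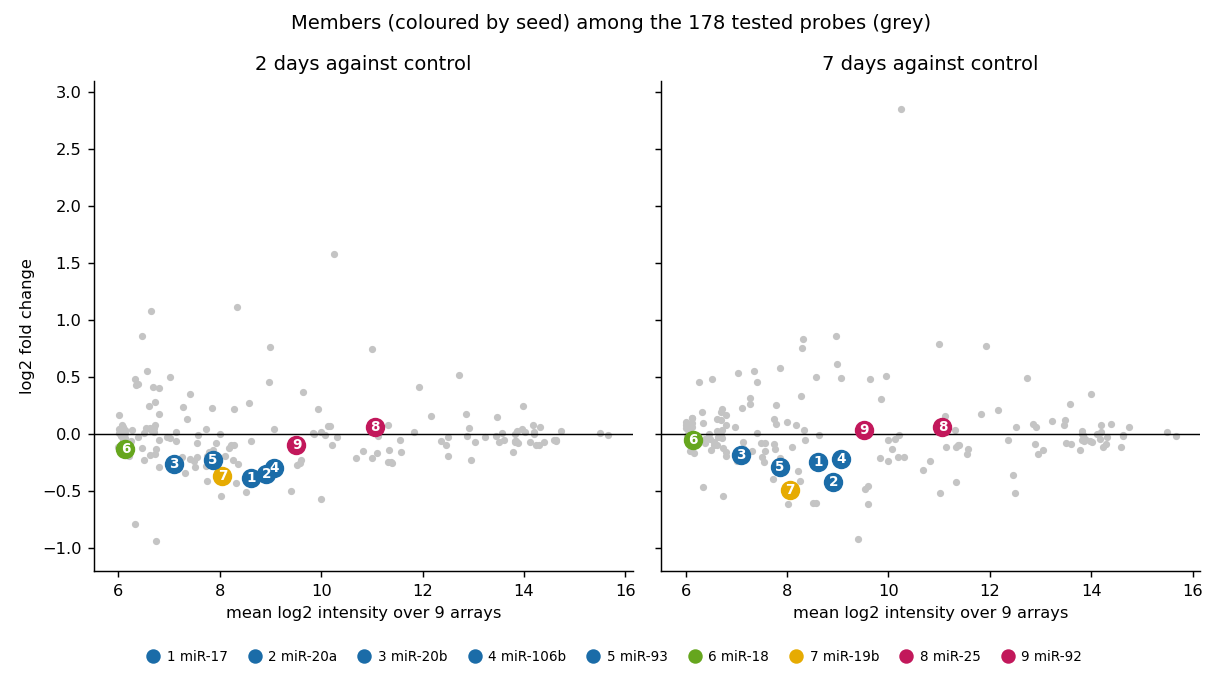
Log2 fold change (y axis) against mean log2 intensity over the 9 arrays (x axis) for the 178 tested probes, after 2 days and after 7 days against control. Numbered, coloured points are the 9 tested members and grey points the rest; the members lie between -0.49 and 0.07, inside the spread of the grey points at like brightness.

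The third comparison set 7 days against 2 days of suspension. The members' log2 fold changes ran from -0.12 (miR-19b) to 0.14 (miR-17), with standard errors of 0.11 to 0.38. Of the 9, 3 had lower fitted values at 7 than at 2 days, against 43.8% of all probes. The groups overlapped for every tested member, where 6.18% of all probes did not overlap and 1.12% did not overlap with the lower values at 7 days. None passed an adjusted p of 0.05, as did 0% of all probes in limma, and none had an unadjusted p under 0.05, against 5.62% of all probes. The smallest adjusted p of a member was 0.948. Centring on the median of all 334 probes gave another picture, with all 9 members higher at 7 days, from 0.14 to 0.66, and 5 of 9 at an unadjusted p under 0.05, against 37.1% of all probes. No member passed there either (smallest adjusted p = 0.0794, with 10 of 178 probes called), and the members' median of 0.40 lay beside a median of 0.39 for all probes.

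Other miRNAs linked to the cell cycle were set beside the members. All of the 8 listed (miR-15b, miR-16, miR-195, miR-34a, miR-26a, miR-24, miR-221 and miR-222) were tested. Of these, 6 had lower fitted values at 2 days and 7 at 7 days, against 60.1% and 58.4% of all probes. None passed the test, against 0.562% and 0% of all probes. Their medians were -0.10 and -0.11, against -0.05 and -0.03 for all probes. MiR-221 and miR-222, which repress the inhibitor Cdkn1b in human and mouse cells, had -0.50 and -0.54 at 2 days and -0.60 and -0.61 at 7 days. Limma adjusted p was 0.131 and 0.0599 at 2 days, and 0.0946 and 0.0874 at 7 days, the last being the smallest of all 178 probes at that time. MiR-16, which restrains cyclins, had -0.05 and -0.09.

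The probes outside the clusters whose values followed the mean of the 9 tested members most closely over the 9 arrays, each centred on its own mean, were miR-24, miR-27a, miR-499, miR-27b and miR-431. Their root mean square distances were 0.075, 0.092, 0.094, 0.096 and 0.110 log2 units, where the median over the 169 other tested probes was 0.227 and a flat line lay at 0.131. These probes, picked as the nearest of the 169, all lay nearer to the members' mean than a flat line did, miR-24 the most. How many of the 169 did so was not counted. A probe that varies little over the arrays also comes near by this measure.

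Markers of other cell types in the muscle were read on the same arrays. Of the 6 blood cell markers listed, miR-144 and miR-142-3p were detected on no array and 3 were tested, with median log2 fold changes of -0.50 at 2 days and -0.24 at 7 days. MiR-451 had -0.50 ± 0.35 and -0.92 ± 0.35 (limma adjusted p = 0.913 and 0.283), the latter the lowest 7-day fold change of the 178 probes. MiR-223 had -0.57 and -0.24, and miR-150 had -0.03 and 0.07. The summed brightness of the list, in which bright probes weigh most, was 6896 to 8090 units on the 2-day, 8152 to 9689 on the 7-day and 6139 to 8200 on the control arrays. Both endothelial markers, miR-126 and miR-126*, were tested. MiR-126 had log2 fold changes of -0.07 ± 0.08 at 2 days and 0.00 ± 0.08 at 7 days, and miR-126* had 1.58 ± 0.70 and 2.86 ± 0.70 (limma adjusted p = 0.715 and 0.138), the highest fold change of the 178 probes at either time. Their summed brightness was 18050 to 18763, 21596 to 24683 and 16533 to 19366 units in the same order of groups. Both smooth muscle markers, miR-143 and miR-145, had lower fitted values at both times, with medians of -0.11 and -0.30 and miR-145 at -0.52 at 7 days (adjusted p = 0.277). Their summed brightness was 8486 to 17188, 11747 to 16374 and 12137 to 14819 units. Of the 4 neuron markers, 2 were tested, miR-128a and miR-128b, and both had lower fitted values, with medians of -0.25 and -0.10 and summed brightness of the list of 3920 to 6462, 5370 to 7356 and 4425 to 6156 units. Of the 5 epithelial markers, 2 were tested, with medians of 0.13 and 0.03, miR-141 was detected on no array, and the summed brightness was 228 to 302, 188 to 232 and 187 to 223.1 units. Only miR-205 of these 5 was detected on all 9 arrays, so the sum also holds background. The median of the empty spots was 27.4 to 53.3, 29.3 to 34.2 and 29.1 to 40.6 units in the same order of groups. No marker of any of these lists passed the test, and the part of these cell types in the members' values was not tested.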

How the data were processed

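Total RNA from soleus was tailed, labelled in 1 colour (Cy5) and hybridised to microfluidic chips by a service provider, per the labels' protocols. Each spot's mean brightness, a linear intensity, is what the deposited scanner files give, per the file headers. A local background, a slide and a scan batch are absent from their columns. The sources used here do not give the image steps. The authors' deposited value table holds whole-number intensity values for 162 probes, 8 members among them, with column medians of 306 to 403.5; its log2 values followed the scanner's with correlations of 0.944 to 0.990 across probes, its scale was taken as linear, and its centring stays unknown. It served as an alternative.

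Analysis used R 4.3.3 and limma 3.58.1. Brightness of the 3968 spots was corrected with normexp (offset 50), miRNA spots were quantile normalised on the log2 scale, and the 9 repeats of a probe were averaged. Detection on an array meant a share of repeats over 0.5 above the empty spots' 95th percentile. The test covered the 178 probes detected throughout 1 group or more. The fit gave each group a mean, with all 9 arrays in it (lmFit, eBayes, 7.78 total degrees of freedom, two-sided, Benjamini-Hochberg over 178 probes, threshold 0.05). The number of arrays limits the precision: the median standard error was 0.166. The script was tested on simulated data. No pair of arrays was a duplicate (correlations 0.971 to 0.996).

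All members are named, by the rule on probe names. The members, lists and tests were chosen with earlier results of these data known. Sequences and coordinates came from the chip's target column and RefSeq tables. Alternatives changed the scaling, background step, filter, weights, block, source of values and arrays used.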

Additional observations from a re-analysis of the deposited data

How the results depend on the processing

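Over 25 alternatives no member passed the threshold in any comparison, except miR-20a at 7 days with array weights, which made the count 1 (-0.50, adjusted p = 0.0425) where 10 of 178 probes passed (5.62%). The smallest adjusted p of a member ran from 0.165 to 0.999 at 2 days from 0.0425 to 0.724 at 7 days and from 0.0794 (median centring over all probes) to 0.997 for 7 against 2 days. Of 444 recomputed member values 23 turned sign. Those from a changed detection filter, a replicate block or a fit of only the groups compared could not turn, as these steps leave a fold change as it was. The members' median at 2 days moved to -0.039 without normalisation and to -0.12 with median centring over detected probes. At 7 days it moved to 0.11 with median centring over all probes, -0.38 with 75th percentile centring, 0.026 without normalisation and -0.33 with median centring over detected probes. Lower members at 7 days numbered 2 with median centring over all probes and 4 without normalisation. Those shifts came with shifts of the median of all probes, and the number of members below that median was 6 to 10 over all alternatives at either time. The 10 were of 12 without a filter, which adds the untested members, and the other alternatives had 8 or 9 members. Median centring over all probes turned the 7-day values of miR-106b to 0.32, miR-17 to 0.22, miR-20a to 0.031, miR-20b to 0.047 and miR-93 to 0.11. Without normalisation miR-18 stood at 0.020 and miR-92 at 0.069 at 2 days, and miR-106b at 0.23, miR-17 at 0.13 and miR-93 at 0.026 at 7 days. Array weights gave miR-19b 0.047 at 2 days and miR-25 -0.0012 and miR-92 -0.029 at 7 days. The authors' table gave miR-92 -0.051 at 7 days with a pseudocount of 1 and -0.049 with 50. Leaving out 1 array at a time gave medians of -0.36 to -0.19 at 2 days and -0.24 to -0.14 at 7 days, with 7 to 9 and 6 to 9 members lower. At 2 days it left miR-19b from -0.59 to 0.014 (above 0 without 2-day array 1), miR-25 from -0.064 to 0.19 (below 0 without control array 1) and miR-92 from -0.38 to 0.12 (above 0 without control array 3 or 2-day array 2). At 7 days it left miR-18 from -0.11 to 0.054 (above 0 without control array 3), miR-25 from -0.061 to 0.19 (below 0 without control array 1) and miR-92 from -0.18 to 0.20 (below 0 without control array 1 or 7-day array 1). The cause of these changes was not tested. With the replicate number as a block (replicate block) 0 members passed in every comparison, with smallest adjusted p of 0.1998 at 2 days and 0.385 at 7 days. Same-numbered arrays did not deviate together (9 pairs, correlations -0.40 to 0.35, 3 over 0.1), 3 of 9 arrays correlated best with their own number, and the numbers were taken as names. Median centring over detected probes and the counts of lower members were chosen after seeing the data.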
